A study of Mus musculus with 5 samples.

Results

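S-phase crypt progenitors are described here as a set of 342 single cells out of 18955 kept cells from the ileal epithelium of mice. Members were chosen by the counts of 26 genes in each cell, and values of these genes are therefore descriptions. A cell was a member if at least 4 of 10 S-phase genes (Hells, Dut, Lig1, Mcm5, Mcm6, Uhrf1, Ung, Pcna, Tyms, Gins2) had a UMI, a counted RNA molecule. Members also had fewer than 4 of 10 G2/M genes (Ube2c, Birc5, Cdc20, Top2a, Cenpa, Cenpf, Mki67, Ccnb1, Ccnb2, Cdk1) and fewer than 2 of 6 stem genes (Lgr5, Ascl2, Gkn3, Smoc2, Rgmb, Axin2). The mice were C57BL/6, 8 to 12 weeks old, and the tissue was the distal end of the small intestine, the ileum. Epithelial cells were profiled by 10x Chromium droplet sequencing after sham surgery (3 libraries) or after small bowel resection (2 libraries), an operation that removes a length of the small intestine. No other genotype, agent or time after surgery stands in the labels. They do not say whether each library was 1 animal, so p-values measure the spread between these libraries, which may be technical.

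The small intestinal epithelium is renewed from crypts. Stem cells at the crypt base give rise to transit-amplifying progenitors, which divide several times, and their daughters become absorptive enterocytes or secretory goblet, Paneth, tuft and enteroendocrine cells. A dividing cell copies its DNA in S phase: the MCM helicase is loaded on origins in G1 with the help of Cdc6 and Cdt1, opens the double strand, and Pcna, a sliding clamp, holds the polymerases on it. Many genes of this programme are targets of E2F transcription factors, and after small bowel resection the remaining intestine is known to enlarge its crypts and villi.

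Of the 10 S-phase genes of the rule, 9 have promoters in the RefSeq table of build GRCm38.p6, 12 promoters in all, each reaching from 250 bases before to 50 bases after a transcription start; Gins2 was not matched. The letters of the E2F motif, searched as TTTCCCGC, TTTGGCGC, TTTCGCGC or TTTGCCGC on both strands, stood in 5 of the 12, 1 each for Hells, Lig1, Mcm5, Mcm6 and Uhrf1. A match was held by 744 of all 32851 promoters there (2.26%). The 250 bases before the start are shown for the 3 genes with a match in that stretch and 1 promoter in the table: Hells, a chromatin remodeller of the SNF2 family (chromosome 19, 38930740 to 38930989, + strand), and the helicase subunits Mcm5 (chromosome 8, 75109259 to 75109508, + strand) and Mcm6 (chromosome 1, 128359706 to 128359955, - strand). Capitals mark the matches.
Hells: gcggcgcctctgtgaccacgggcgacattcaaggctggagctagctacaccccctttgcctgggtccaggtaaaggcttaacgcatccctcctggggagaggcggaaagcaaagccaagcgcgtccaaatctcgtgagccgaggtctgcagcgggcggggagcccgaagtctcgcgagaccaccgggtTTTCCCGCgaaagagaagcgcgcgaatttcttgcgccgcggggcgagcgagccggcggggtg
Mcm5: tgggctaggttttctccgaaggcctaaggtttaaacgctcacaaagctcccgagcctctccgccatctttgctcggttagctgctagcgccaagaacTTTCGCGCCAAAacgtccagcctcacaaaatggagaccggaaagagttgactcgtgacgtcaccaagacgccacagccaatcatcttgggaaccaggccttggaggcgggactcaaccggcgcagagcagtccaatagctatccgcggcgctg
Mcm6: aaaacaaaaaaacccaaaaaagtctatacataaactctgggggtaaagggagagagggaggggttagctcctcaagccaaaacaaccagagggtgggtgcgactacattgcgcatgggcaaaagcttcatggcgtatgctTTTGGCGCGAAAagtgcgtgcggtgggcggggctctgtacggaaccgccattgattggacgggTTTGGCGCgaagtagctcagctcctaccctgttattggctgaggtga
In Hells the match began 62 bases before the start. Mcm5 held 2 overlapping matches, of which the outer began 153 bases before the start. Mcm6 held 3, an overlapping pair from 110 bases and a single one from 47 bases before the start. A match of letters is a description of the sequence, and binding was not measured.

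The libraries held 11749028 to 41281731 UMIs. Sham 1 and resection 1 had the highest median mitochondrial shares of kept cells, 13.3% and 11.6%, against 8.49%, 7.23% and 9.13% in sham 2, sham 3 and resection 2. Both groups therefore stand in each of these 2 sets of libraries, and differences are given also within them. Pairs of libraries shared 203 cell barcodes in all, beside 192 for random draws from the barcode list. Members' counts were summed per library, which gave 127159, 270031 and 833133 UMIs in sham 1, 2 and 3, then 383809 and 847068 UMIs in resection 1 and 2. Levels are given as CPM, a gene's count in these sums scaled to a common library total, with totals scaled by TMM.

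Dut, the dUTPase that keeps uracil out of new DNA, was the rule gene found in most members, with a UMI in 78.7% of them. The DNA ligase Lig1 followed with 70.2%, Pcna with 69.9%, Hells with 61.1%, and Mcm6 with 59.4%. Mcm5 was found in 50.9%, the thymidylate synthase Tyms in 50%, Uhrf1, which brings Dnmt1 to newly copied DNA, in 48.2%, the uracil glycosylase Ung in 41.5%, and the GINS subunit Gins2 in 31.3%. Enterocyte-marked cells, those of the remaining cells with at least 6 of 8 enterocyte markers, were taken for comparison. By the rule these cells had fewer than 4 S-phase genes each, so they are no independent background. They had a median of 5022 UMIs beside 5749 in members, and their shares for these 10 genes lay between 0.478% (Uhrf1) and 4.41% (Dut), except for Pcna with 13.7%. The pair most often found together was Dut with Pcna, in 192 of 342 members (56.1%). These shares follow from the rule and carry no test.

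**Figure D1:**
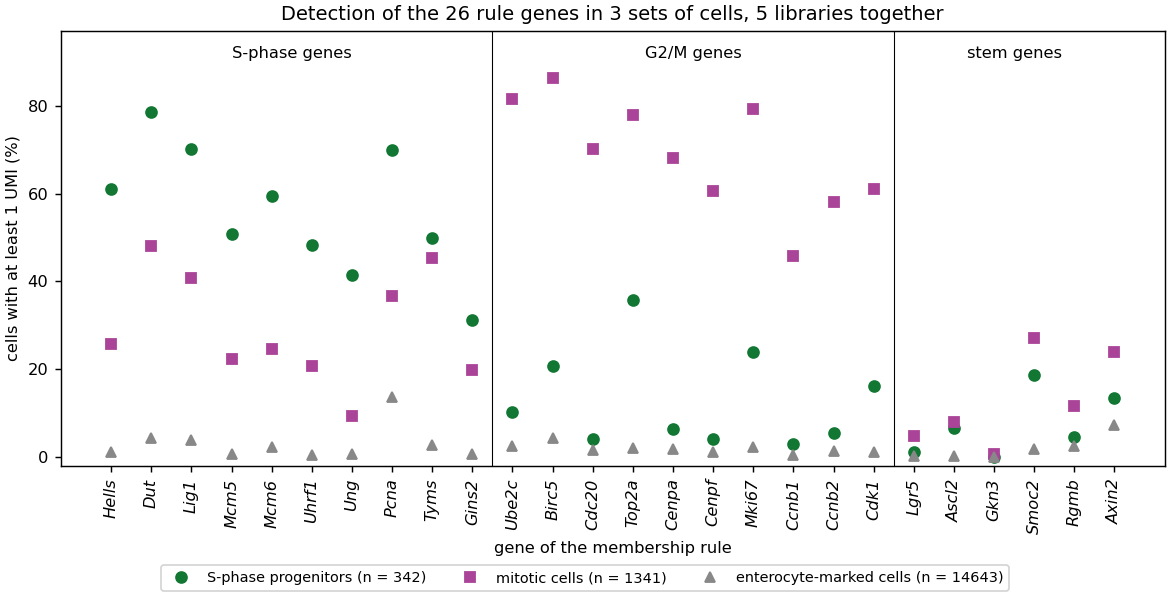
Share of cells with at least 1 UMI (y axis, percent) for the 26 genes of the membership rule (x axis) in S-phase progenitors, mitotic cells and enterocyte-marked cells, 5 libraries together. Members run from 78.7% for Dut to 31.3% for Gins2 among the S-phase genes, and the rule itself keeps their G2/M and stem genes low.

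The G2/M genes were not absent from members. Top2a, the topoisomerase that untangles copied DNA and rises already in S phase, had a UMI in 35.7% of members, and the proliferation marker Mki67 in 24.0%. Birc5, the survivin of the chromosomal passenger complex, was at 20.8%, the kinase Cdk1 at 16.1%, Ube2c at 10.2%, and the mitotic cyclin Ccnb1 at 2.92%. No G2/M gene was detected in 101 members, 1 in 102, 2 in 75 and 3 in 64. Of the stem genes, Smoc2 was found in 18.7% and Axin2, a Wnt target, in 13.5% of members. Lgr5, the receptor that defines crypt base stem cells, had a UMI in 1.17%, and Gkn3 in 0 of 342.

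The rule set the edges of the class, and cells lay close to them. At least 4 S-phase genes were detected in 897 cells, of which 458 were left out for 4 or more G2/M genes and 97 for 2 or more stem genes. Members with exactly 4 S-phase genes numbered 107 and had a median of 5417 UMIs. A further 196 cells that met the other clauses had 3 S-phase genes and a median of 6195.5 UMIs. Members with 3 G2/M genes numbered 64, and 65 cells with at least 4 S-phase genes stood just outside with 4. Members with 5, 6, 7, 8, 9 and 10 S-phase genes numbered 71, 75, 47, 22, 19 and 1, and the 22 members with 8 had a median of 7926 UMIs. The class is thus a range of S-phase gene detection and not a group with a gap around it.

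Members carried RNA of other cell types. At least 4 of 8 Paneth markers were detected in 15 of 17 members of sham 1, 38 of 48 of sham 2, 37 of 100 of sham 3, 34 of 57 of resection 1 and 41 of 120 of resection 2. At least 2 of the 7 T cell markers in the gene table (Cd3d, Cd3e, Cd3g, Cd7, Gzma, Gzmb and Ccl5) were detected in 28 members. Atoh1 or Dll1, which mark commitment to the secretory lineage, were detected in 17. Over 20000 UMIs were counted in 12 members, and 15 were among the cells of highest doublet score. Doublets were kept in the values below and left out in an alternative.

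Mitotic cells, the 1341 kept cells with at least 4 G2/M genes, are the closest comparison, since they come from the same cycling compartment. They were deeper, with a median of 7872 UMIs per cell. Outside the rule, 1422 genes reached a mean of 100 CPM in either class. Of these, 42 (2.95%) were higher in members in all 5 libraries and 168 (11.8%) were lower. Ratios between classes were taken within a library, as log2(CPM + 10). Classes cut on the cells' own counts must differ, so these are descriptions with no test.

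Dnmt1, the maintenance DNA methyltransferase, led the 8 genes named as highest against mitotic cells. It stood at 141, 102 and 58.0 CPM in members of sham 1, 2 and 3, then at 150 and 67.3 CPM in resection 1 and 2. In mitotic cells it lay between 32.4 and 50.2 CPM. The median log2 ratio over libraries was 1.40 (range 0.20 to 1.64). Dnmt1 reached a mean of 100 CPM only in members, as did Mcm7, Cdca7 and Slbp. Naming also required the same direction in all 5 libraries, so the separation of the classes follows in part from the choice of genes. The helicase subunit Mcm7 had a median log2 ratio of 1.22 (0.39 to 1.61) with a mean of 105 CPM in members and 42.7 in mitotic cells. Cdca7, which acts with Hells in chromatin remodelling, had 1.10 (0.77 to 1.60), with a mean of 118 CPM against 48.0. Slbp, which binds the stem-loop of replication-dependent histone mRNAs, had 0.61 (0.27 to 1.46), and the histone chaperone Nasp 0.68 (0.19 to 0.83). Impdh2, an enzyme of guanine nucleotide synthesis, the cotransporter Slc12a2 and the nucleosome-binding Hmgn1 completed the 8 named, with median log2 ratios between 0.47 and 0.51.

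The other helicase and licensing genes were described next. Mcm2, Mcm3 and Mcm4 had means of 54.6, 66.7 and 53.9 CPM in members, beside mitotic means of 17.2, 20.9 and 19.6 CPM. Cdt1, the licensing factor that is destroyed once S phase begins, had 100, 70.8 and 72.2 CPM in the sham libraries and 81.1 and 41.6 CPM in the resection libraries. All 5 values lay above the mitotic range of 5.23 to 20.1 CPM. E2f1, itself an E2F target, lay between 22.5 and 43.1 CPM in members and between 2.82 and 10.5 CPM in mitotic cells. Cyclin E genes, which drive entry into S phase, followed: Ccne1 had a mean of 23.9 CPM in members and 8.43 in mitotic cells, and Ccne2 23.5 against 7.06.

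Over the list of replication genes outside the rule, 35 reached a mean of 20 CPM in either class. Of these, 19 were higher in members than in mitotic cells in all 5 libraries, 1 was lower, and the median log2 ratio was 0.60. Over all 5697 genes at that level, 4.37% were higher in every library and the median was -0.04. For DNA repair 6 of 12 genes were higher in all 5 libraries, and for DNA methylation 2 of 5. For nucleotide synthesis 7 of 21 were higher (median log2 ratio 0.40), among them Paics of purine synthesis with 54.6 CPM against 19.96. Ribonucleotide reductase was closer in both classes: Rrm2 had 58.2 CPM in members and 37.1 in mitotic cells, whose range reached 59.6.

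Genes of chromosome segregation were lower in members. Cenpe, the kinetochore motor, had 40.2, 7.86 and 8.28 CPM in sham 1, 2 and 3, then 17.7 and 8.56 CPM in resection 1 and 2, against 96.9 to 118 CPM in mitotic cells. The median log2 ratio was -2.53 (-2.83 to -1.36). Cdca8, the borealin of the chromosomal passenger complex, had -2.30, Cdca3 -2.19, cyclin A (Ccna2) -1.96, the histone variant H2afx -1.89, Cks2, a subunit of the cyclin-dependent kinase, -1.67, and the tubulins Tuba1c and Tubb4b -1.44 and -1.36. Of 22 mitosis genes outside the rule, 21 were lower in all 5 libraries (median -1.69), beside 10.0% of all genes at that level. Among histone genes 5 of 10 were lower in all 5 libraries. Levels within this list ran far apart: Hist1h1b had a mean of 6.02 CPM in members and Hist1h4c 5.08, while Hist1h2bc had 228. How fully histone RNAs were captured was not tested, so these values do not give the amount of histone RNA in a cell.

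**Figure D2:**
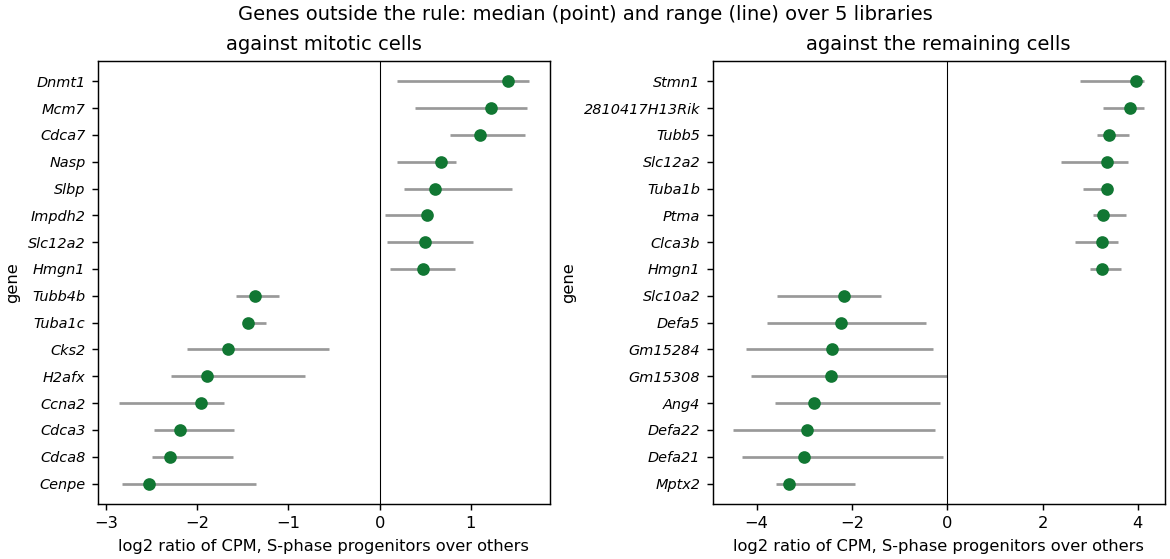
Log2 ratio of CPM in S-phase progenitors over mitotic cells (left) and over the remaining cells (right) for the 16 named genes of each contrast (y axis); points are medians and lines the range over the 5 libraries. Dnmt1 and Mcm7 lead against mitotic cells with medians of 1.40 and 1.22 and Cenpe is lowest with -2.53; against the remaining cells Stmn1 leads with 3.96 and Mptx2 is lowest with -3.32.

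Against the 16922 remaining cells, of which 14643 were enterocyte-marked, members were higher in genes of growth and proliferation. Of 1554 genes with a mean of 100 CPM in either class, 745 (47.9%) were higher and 449 (28.9%) lower in all 5 libraries. Stmn1, a microtubule regulator of dividing cells, had the highest median log2 ratio, 3.96, with a mean of 418 CPM against 19.8. 2810417H13Rik, the Pcna-binding factor Pclaf, followed with 3.83, and the tubulins Tubb5 and Tuba1b with 3.40 and 3.35. Slc12a2, a gene of crypt base and progenitor cells, had 3.36, prothymosin (Ptma) 3.26, Clca3b 3.26 and Hmgn1 3.24. The median log2 ratio was 1.87 for replication genes (30 of 34 higher in all 5 libraries), 1.93 for nucleotide synthesis (21 of 21), 1.75 for DNA repair (12 of 12) and 2.31 for ribosome biogenesis (13 of 15), beside 0.27 for all genes at 20 CPM and 42.9% of them higher.

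Crypt genes that the rule did not use were compared in the same way. Of 20 such stem and progenitor genes, 9 reached a mean of 20 CPM in either class. All 9 were higher than in the remaining cells in all 5 libraries (median log2 ratio 1.59), beside 42.9% of all genes at that level. A gene could reach this level through a single class, here and in the lists above. Such counts therefore follow in part from the filter and are descriptions. Of the ribosome biogenesis list, the nucleolar proteins Ncl and Npm1 had means of 845 and 756 CPM in members, against 97.8 and 103 CPM in the remaining cells. Cyclin D (Ccnd2) lay between 392 and 629 CPM in members and between 400 and 638 in mitotic cells, so these classes overlapped. Enterocyte markers were lower than in the remaining cells in all 5 libraries for 8 of 8 genes (median -1.91), beside 18.8% of all genes at 20 CPM, and the lists of proximal and distal enterocyte genes had medians of -1.50 and -1.58. Olfm4, a stem cell marker, was low, with 0 to 24.5 CPM. Against the 350 Lgr5-type cells, those with 2 or more stem genes and fewer than 4 G2/M genes, 1016 of 1333 genes at 100 CPM were higher (76.2%) and 1 was lower (0.075%) in all 5 libraries, and these cells had a median of 20170.5 UMIs in sham 1.

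The lowest genes against the remaining cells were Paneth antimicrobials. Mptx2, the Paneth cell pentraxin, had a median log2 ratio of -3.32 (range -3.59 to -1.93). For the other Paneth genes the range over libraries reached nearer to 0: Defa21 had -3.01 (-4.31 to -0.0943), Defa22 -2.95 (-4.49 to -0.25), the ribonuclease Ang4 -2.80 (-3.62 to -0.15), Gm15308 -2.43 (-4.11 to -0.00452), Gm15284 -2.42 (-4.23 to -0.30) and Defa5 -2.22 (-3.78 to -0.45). Defensin genes share near-identical copies, so the counts of single ones are uncertain. The bile acid transporter Slc10a2, an ileal enterocyte gene, was the other named gene with -2.16 (-3.58 to -1.38).

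The first comparison between groups asked whether S-phase progenitors were more or less frequent after resection. They made up 17 of 1296 kept cells in sham 1 (1.31%, exact Clopper-Pearson 95% interval 0.766 to 2.09), 48 of 3914 in sham 2 (1.23%, 0.906 to 1.62) and 100 of 2848 in sham 3 (3.51%, 2.87 to 4.25). After resection they were 57 of 3792 (1.503%, 1.14 to 1.94) and 120 of 7105 (1.69%, 1.40 to 2.02). The intervals cover counting error only. Sham 3 stood above the other 4 libraries, and both resection libraries lay inside the sham range.

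The mean share was 2.02% ± 1.30 (SD) over the 3 sham libraries and 1.60% ± 0.131 (SD) over the 2 resection libraries. Resection minus sham was -0.42 percentage points, with an exact two-sided permutation p = 1 over 10 splits. The smallest p that 3 against 2 libraries allows is 0.1. Without sham 3 the difference was 0.33 points. Within sham 1 and resection 1 it was 0.19 points, and within the other 3 libraries -0.68. Sham 3 was also the library of highest median depth (6260 UMIs per kept cell). With every cell thinned to 2000 UMIs, the shares were 0.617%, 0.460% and 1.62% in sham 1, 2 and 3, then 0.712% and 0.774% in resection 1 and 2, and sham 3 was still the highest. At 4000 UMIs, with shallower cells left out (1264, 2400 and 2477 cells were left in sham 1, 2 and 3, then 3530 and 4499 in resection 1 and 2), they were 1.11%, 0.958%, 3.92%, 1.59% and 1.80%.

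**Figure D3:**
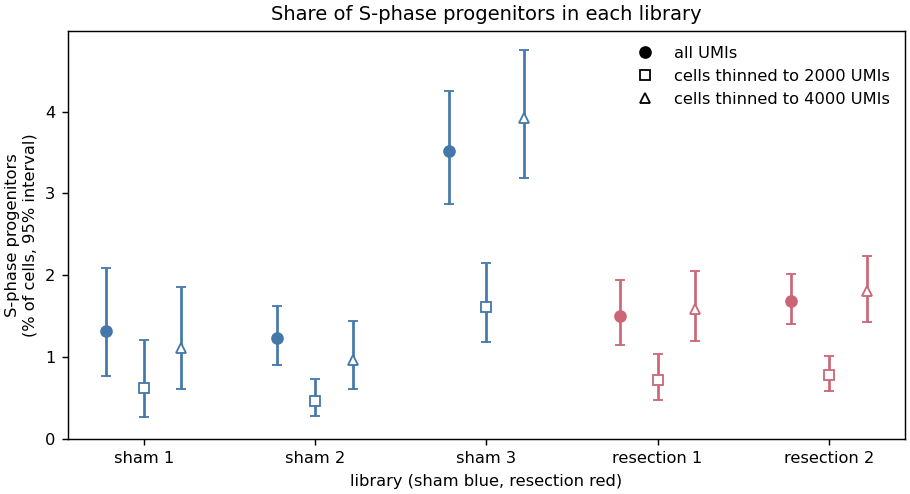
Share of S-phase progenitors among cells of each library (y axis, percent; bars are exact 95% intervals for counting error), from all UMIs and from cells thinned to 2000 or 4000 UMIs; sham libraries are blue and resection libraries red. Sham 3 is highest in all 3 versions (3.51%, 1.62% and 3.92%), and the resection libraries stand close to each other.

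Taken against mitotic cells of the same library, the number of S-phase progenitors varied less. There were 0.254, 0.245 and 0.296 members per mitotic cell in sham 1, 2 and 3, then 0.182 and 0.282 in resection 1 and 2. Resection 1 was the lowest and resection 2 lay inside the sham range. The difference of the log2 ratio was -0.22 (mean -1.92 ± 0.14, SD, n = 3, against -2.14 ± 0.45, SD, n = 2; exact two-sided permutation p = 0.5). Without resection 1 it was 0.09. Mitotic cells made up 5.17%, 5.01% and 11.9% of kept cells in sham 1, 2 and 3, then 8.28% and 6.00% in resection 1 and 2, so that sham 3 was the highest in both classes.

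The second comparison asked which genes differed between resection and sham inside the members. The highest-ranked genes were lipid absorption genes of enterocytes. Fabp1, the liver-type fatty acid-binding protein of proximal enterocytes, had 60.3, 102 and 194 CPM in sham 1, 2 and 3, then 616 and 645 CPM in resection 1 and 2. Both resection libraries stood above the sham range, and the log2 fold change was 2.31 ± 0.43 (SE). The edgeR quasi-likelihood test with Benjamini-Hochberg adjustment gave an adjusted p of 0.265 and so did not call it. The apolipoprotein Apoc3 had 90.4, 70.8 and 32.0 CPM in the sham libraries and 216 and 390 CPM after resection. Its log2 fold change was 2.42 ± 0.45 (SE), and the edgeR adjusted p was again 0.265.

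No gene of 4765 tested passed the adjusted threshold of 0.05 with edgeR (0.0%), and 79 (1.66%) had an unadjusted p below it. DESeq2 on the same sums called 2 genes (0.042%), Fabp1 (adjusted p = 0.00372) and Apoc3 (0.0154). With the 2 sets of libraries as a term, edgeR called 4 (0.0839%): Fabp1, Apoc3, Sis and Ccl5, each with adjusted p = 0.0123. With the replicate number as a block edgeR called 32 (0.672%), of which 5 were higher (Fabp1, Apoc3, Apoa4, Ccl5 and Sis) and 27 lower, among them defensins and other Paneth and goblet genes, and with no filter on low counts 21 of 13028 (0.161%). Both resection libraries lay above all sham libraries for 316 genes (6.63%) and below for 240 (5.04%). Without the 12 members of over 20000 UMIs, a cut chosen after the data were seen, edgeR called Fabp1 (adjusted p = 0.0236) and Apoc3 (0.0257).

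The other genes of the 10 highest were in part of the same kind. Apoa4, an apolipoprotein of chylomicrons, had 211, 374 and 21.3 CPM in sham 1, 2 and 3, then 1156 and 933 CPM after resection. Its log2 fold change was 2.41 ± 0.72 (SE), with sham 3 far below the other sham libraries. Sis, the sucrase-isomaltase of the brush border, had 131, 252 and 221 CPM in the sham libraries and 345 and 749 CPM after resection. Npc1l1, the cholesterol uptake transporter, had 50.2, 39.3 and 29.6 against 96.3 and 122 CPM. Rbp2, the cellular retinol-binding protein of enterocytes, had 311, 425 and 116 against 570 and 888 CPM. Chka, a choline kinase, and the regulators Kmt2e and Stk38 had log2 fold changes of 1.21, 1.20 and 1.14. None of these passed the edgeR test.

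The same RNAs were measured in the other cells of each library, here as CPM without TMM scaling. Fabp1 stood at 47.2, 96.3 and 197 CPM in members of sham 1, 2 and 3, then at 633 and 622 in resection 1 and 2. In mitotic cells it stood at 48.2, 85.9 and 230 CPM in sham and at 447 and 513 after resection, so that members were above mitotic cells in sham 2 and both resection libraries and below in the other 2. In enterocyte-marked cells it stood higher, at 119, 388 and 625 CPM in sham and at 4078 and 2323 after resection. Estimates for resection were positive in other cells too: the edgeR log2 fold changes of Fabp1, Apoc3 and Apoa4 were 1.89, 2.14 and 2.94 in mitotic cells and 2.91, 2.59 and 3.43 in the remaining cells.

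T cells do not make Fabp1, and droplets marked by T cell genes were taken for comparison: the 34, 102, 25, 26 and 198 of the remaining cells with at least 4 of the 7 T cell markers in the gene table, in sham 1, 2, 3 and resection 1, 2. They held Fabp1 at 43.4, 215 and 791 CPM in sham and at 4229 and 1930 after resection, close to or above the enterocyte-marked cells in sham 3 and both resection libraries. Sis had a UMI in 85.3% to 100% of them. These droplets thus carried enterocyte RNA themselves and give no background level for members. The share with a Fabp1 UMI was 11.8%, 20.8% and 48% of members in sham and 86.0% and 71.7% after resection, beside 44.1%, 43.1%, 64%, 100% and 91.9% of the T cell-marked droplets. For Apoc3 the shares were 35.3%, 20.8%, 15%, 47.4% and 60% of members and 55.9%, 52.9%, 76%, 92.3% and 82.8% of the droplets. Median depths were 5499, 4936.5, 6422, 6043 and 5501 UMIs in members and 6165.5, 4394.5, 6933, 6810 and 5330.5 UMIs in the droplets. RNA made by members and RNA from other cells in the same droplet were not separated.

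**Figure D4:**
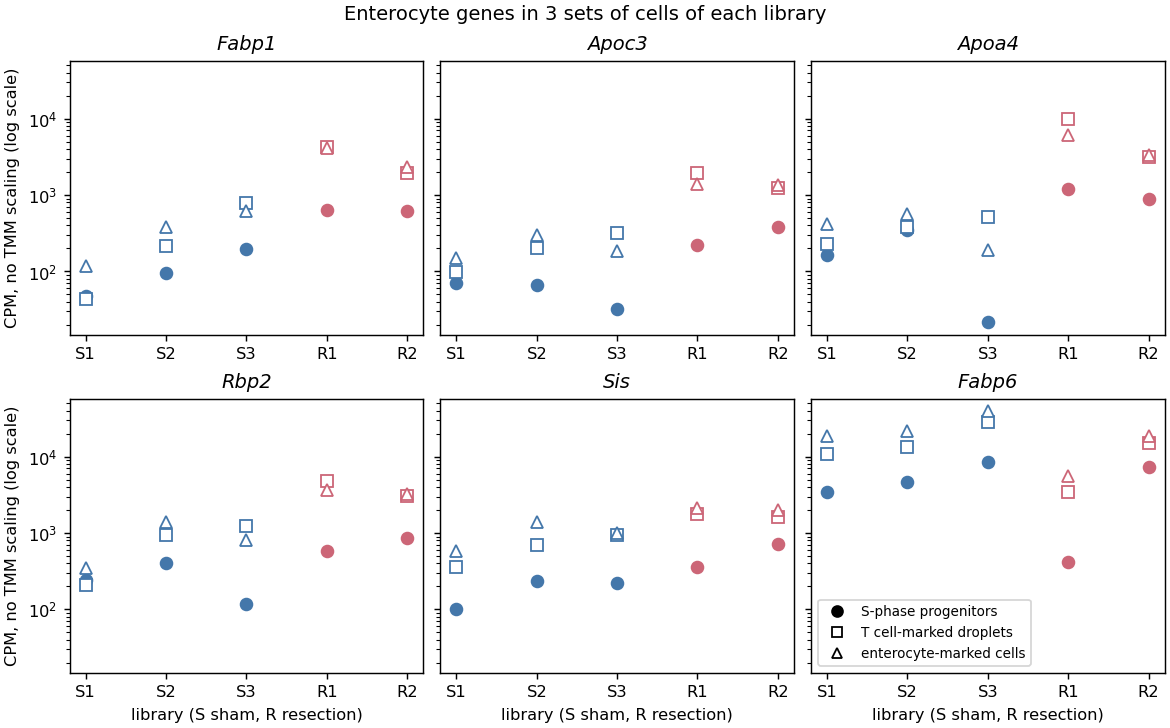
CPM without TMM scaling (y axis, log scale) of 6 enterocyte genes in S-phase progenitors, T cell-marked droplets and enterocyte-marked cells of each library (x axis; S1 to S3 sham, R1 and R2 resection). In both resection libraries Fabp1, Apoc3 and Apoa4 are lower in S-phase progenitors than in either of the other sets of cells, and Fabp6 is lowest in R1 in all 3 sets.

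Ccl5, a chemokine of T cells, was also among the 10 highest, with 20.1, 126 and 67.5 CPM in sham 1, 2 and 3, then 172 and 371 CPM after resection (log2 fold change 1.83 ± 0.49, SE; edgeR adjusted p = 0.9998). Some members also carried T cell markers. Members with fewer than 2 of the 7 T cell markers were taken apart. Their Ccl5 stood at 8.14, 34.0 and 22.7 CPM without TMM scaling in sham and at 11.6 and 24.0 after resection. The groups overlapped, but Ccl5 is itself 1 of the 7 markers. Its level in these members was thus set in part by the filter. The summed share of the 7 T cell markers was 0.00629%, 0.0748%, 0.0157%, 0.0386% and 0.0740% of members' UMIs in sham 1, 2, 3 and resection 1, 2.

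The 10 lowest genes by the rule for naming had smaller changes, and all had an edgeR adjusted p of 0.9998. Krt7, a keratin, had 90.4, 161 and 175 CPM in the sham libraries and 63.4 and 73.4 CPM after resection (log2 fold change -1.12 ± 0.36, SE). Pfn1, the actin-binding profilin, had 804, 936 and 1113 CPM in the sham libraries and 543 and 470 CPM after resection. Creld2, a gene of the endoplasmic reticulum stress response, Plscr1, a phospholipid scramblase, and Rnaset2a had log2 fold changes of -1.16, -1.09 and -0.93. Eci2, of fatty acid oxidation, the efflux pump Abcb1a, the glutamate transporter Slc1a1, the transcription factor Cebpb and the adenosine kinase Adk lay between -0.96 and -0.82. In each of these genes both resection libraries lay below all sham libraries, as the rule for naming them required.

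The replication programme itself showed no called gene. Of 43 replication genes outside the rule, 43 had a UMI in members and 31 were tested; 14 had a higher and 17 a lower estimate after resection, 0 were called, and the median log2 fold change was -0.02 beside -0.004 for all 4765 genes. Within sham 1 and resection 1 the list's median was 0.25, and within the other 3 libraries -0.25. The 10 S-phase genes of the rule had log2 fold changes between -0.79 (Mcm5) and 0.37 (Lig1): Hells had 171, 244 and 150 CPM in the sham libraries and 155 and 131 CPM after resection, and Pcna 151, 185 and 176 against 139 and 172 CPM. Among the list, Rpa3, a subunit of the single-strand binding protein, had the lowest p, with 20.1, 90.4 and 92.3 CPM in the sham libraries and 48.2 and 44.0 CPM after resection. Orc6, of the origin recognition complex, had 50.2, 130 and 94.7 against 55.8 and 70.9 CPM, and the checkpoint mediator Clspn 20.1, 43.3 and 28.4 against 65.9 and 37.9 CPM. In all 3 the groups overlapped.

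The lists around it were close to the median of all genes as well. Of 26 nucleotide synthesis genes 18 were tested, with a median log2 fold change of -0.10. Of these, 3 lay above and 3 below the sham range, beside 6.63% and 5.04% of all tested genes. Rrm1, the large subunit of ribonucleotide reductase, had 100, 82.6 and 65.1 CPM in the sham libraries and 63.4 and 48.9 CPM after resection, and Atic of purine synthesis 60.3, 47.2 and 66.3 against 76.1 and 74.6 CPM. DNA repair (10 of 22 genes tested) had a median of 0.004. For DNA methylation (6 of 11 tested) it was 0.10, for histones (7 of 18) -0.04 and for G1/S control (17 of 28) -0.11. In the last list E2f4, a repressor of the E2F family, had 50.2, 55.1 and 74.6 CPM in the sham libraries and 45.6 and 37.9 CPM after resection, below the sham range. No gene of any of these lists was called by edgeR.

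Growth, stem and fate genes showed no called gene either. Ribosome biogenesis (15 of 18 tested) had a median log2 fold change of -0.19, with 0.60 within sham 1 and resection 1 and -0.26 within the other libraries. Stem and progenitor genes outside the rule (9 of 20 tested) had -0.09; Ephb2, an ephrin receptor of the crypt, stood at 40.2, 23.6 and 27.2 CPM in the sham libraries and 48.2 and 52.6 CPM after resection, above the sham range. Over all tested genes 49.5% had a higher and 50.5% a lower estimate. The 7 tested genes of EGF and IGF signalling of 18 all had higher estimates with a median of 0.16, which was 0.0505 without resection 1. The 7 tested p53 targets of 15 all had lower ones with a median of -0.14; it was -0.27 within sham 1 and resection 1, 0.0777 within the other libraries, 0.0761 without resection 1 and 0.0541 with at most 10% mitochondrial UMIs. Areg, an EGF receptor ligand, had 70.3, 90.4 and 140 CPM in the sham libraries and 78.6 and 231 CPM after resection, and the cell cycle inhibitor Cdkn1a 131, 110 and 111 against 50.7 and 125 CPM. Absorptive fate genes (12 of 17 tested) had a median of -0.04 and secretory fate genes (3 of 12) 0.20. Xbp1, the secretory cell transcription factor, had 70.3, 98.3 and 124 CPM in the sham libraries and 76.1 and 53.8 CPM after resection.

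The lists of enterocyte genes differed among themselves: the medians of the proximal genes and of the 8 markers lay above that of all genes, and the median of the distal genes lay close to it. Of 23 proximal genes, which mark duodenum and jejunum, 22 had a UMI in members and 13 were tested. Of these 13, 12 had a higher estimate, 7 lay above the sham range and 0 below. Among all tested genes 49.5% had a higher estimate, 6.63% lay above the sham range and 5.04% below. The median log2 fold change of the proximal genes was 1.01. Within sham 1 and resection 1 the median was 0.21, within the other 3 libraries 0.97, and without resection 2 it was 0.57. Leap2, a peptide that opposes ghrelin, had an estimate of 2.43, from 1, 6 and 3 UMIs in sham and 18 and 44 UMIs after resection. Of 16 distal genes 14 were tested, with a median of 0.09, 0 outside the sham range and 0 called; the median was -0.85 within sham 1 and resection 1, 0.36 within the other libraries and -0.55 without resection 2. The 8 enterocyte markers all had a higher estimate with a median of 0.82, but -0.12 within sham 1 and resection 1 and 0.0655 without resection 2. Their summed share was 0.480%, 0.796% and 0.628% of members' UMIs in sham 1, 2 and 3, then 0.666% and 1.98% in resection 1 and 2.

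**Figure D5:**
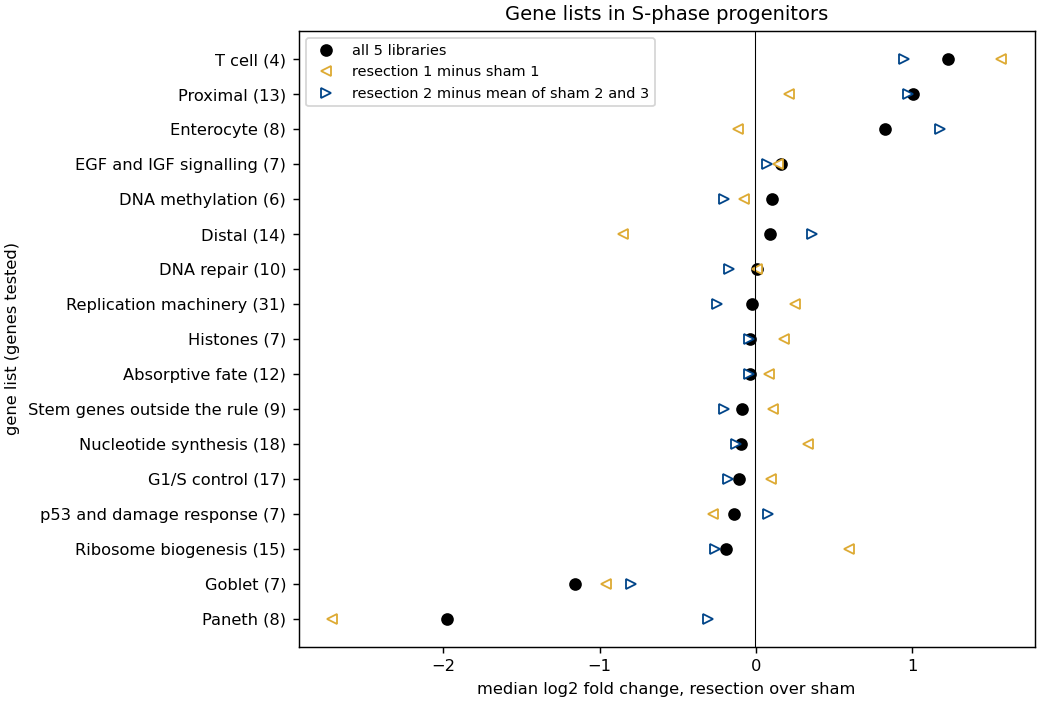
Median log2 fold change of resection over sham in S-phase progenitors (x axis) for each gene list with 4 or more tested genes (y axis, number tested in brackets): edgeR estimates over all 5 libraries, and log2 ratios of CPM within sham 1 and resection 1 and within the other 3 libraries. Replication genes lie at -0.02, proximal genes at 1.01 and Paneth markers at -1.98; the vertical line is the median of all genes (-0.004).

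The regional balance, the log2 ratio of the proximal list's summed UMIs to the distal list's, put this in 1 number per library. It was -1.51, -1.24 and -2.18 in members of sham 1, 2 and 3, then 1.44 and -0.76 in resection 1 and 2. Both resection libraries stood above all sham libraries, though not when at least 5 S-phase genes were required of members. The difference was 1.98 (mean -1.64 ± 0.48, SD, n = 3, against 0.34 ± 1.55, SD, n = 2) with an exact two-sided permutation p of 0.1, the smallest the design allows. It was 2.95 within sham 1 and resection 1 and 0.95 within the other libraries, and 0.88 without resection 1. Fabp6, the ileal bile acid-binding protein, made up 435 of 619, 1260 of 1635 and 7189 of 8425 distal UMIs in sham 1, 2 and 3, then 160 of 608 and 6198 of 7976 in resection 1 and 2. It was thus most of the distal UMIs in every library but resection 1. Without Fabp6, a version not planned beforehand, the balance was 0.24, 0.89 and 0.59 in sham and 1.88 and 1.40 after resection. The difference was then 1.07.

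Markers of Paneth and goblet cells were lower on the whole, and for Paneth markers this rested on sham 1. The 8 Paneth markers took 9.94%, 0.692% and 0.125% of members' UMIs in sham 1, 2 and 3, then 2.07% and 0.392% in resection 1 and 2. In sham 1 a single member with 8 of these 8 markers held 40199 of the 127159 summed UMIs. The list's median log2 fold change was -1.98, but 1.53 without sham 1 and -0.16 without the 12 members of over 20000 UMIs. Lysozyme (Lyz1) had 13022, 397 and 74.6 CPM in sham 1, 2 and 3, then 1123 and 155 CPM after resection. In T cell-marked droplets of sham 1 Lyz1 stood at 17906 CPM without TMM scaling, beside 10192 in its members, and in those of sham 3 at 292. The 7 goblet markers took 0.600%, 0.859% and 0.310% of members' UMIs in sham and 0.309% and 0.326% after resection, with a median log2 fold change of -1.16 and 0 called. With the replicate block, Fcgbp (adjusted p = 0.00498) and Muc2 (0.00498) of the goblet markers were called lower by edgeR. So were Lyz1 (0.000849), Ang4 (6.8e-05), Defa22 (0.000849), Defa24 (0.0269) and Mmp7 (0.0166) of the Paneth markers. Fcgbp had 854, 1353 and 263 CPM in sham 1, 2 and 3, then 434 and 285 after resection. Muc2 had 241, 283 and 54.4 CPM, then 112 and 55.0. For both genes the resection libraries stood above sham 3, which the block pairs with no library. The labels state no pairing. Among the markers of other cells, Cd79a, Ms4a1 and Jchain (B cells), Csf1r (myeloid) and Col1a1, Col3a1, Dcn and Lum (stroma) were at 0 in members, and tuft markers took at most 0.00521% of UMIs.

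The last comparison asked whether resection was followed by other differences in S-phase progenitors than in other cells of the same libraries. Against mitotic cells, the edgeR interaction test called 0 of 7956 genes (0.0%), with 202 (2.54%) at an unadjusted p below 0.05. The difference of the log2 fold changes is the coefficient of that model, which compares the classes within each library. Of the named genes, Ccl5 had a difference of 1.64 ± 0.43 (SE). Prdx4 had 1.10 ± 0.32 (SE), Phlda1 0.95, Csnk1g2 -1.02, Slc1a1 -0.90 and 1190007I07Rik -0.95, each with an edgeR adjusted p of 0.9998. A p that misses the threshold does not show that the classes responded alike.

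Against the remaining cells, the edgeR interaction test called 13 of 11104 genes (0.117%), 11 in the positive and 2 in the negative direction, with 568 (5.12%) at an unadjusted p below 0.05. Areg, the EGF receptor ligand, stood at 70.3, 90.4 and 140 CPM in members of sham 1, 2 and 3, then at 78.6 and 231 after resection, while in the remaining cells it went from 403, 407 and 612 CPM to 207 and 375. The difference of the log2 fold changes was 1.28 ± 0.28 (SE; edgeR adjusted p = 0.00597, between 0.000171 and 0.852 over 10 alternatives, called in 5). Duoxa2, the maturation factor of a dual oxidase, had 55.0, 34.4 and 449 CPM in the remaining cells of sham and 22.05 and 74.5 after resection, with a high value in sham 3, and a difference of 1.53 ± 0.32 (SE; edgeR adjusted p = 0.00312, called in 8 of 10 alternatives). The water channel Aqp1 went the other way, with 50.6, 49.3 and 18.0 CPM in the remaining cells of sham and 107 and 69.7 after resection, against 141, 98.3 and 71.0 and then 106 and 72.2 CPM in members (difference -1.47 ± 0.28, SE; edgeR adjusted p = 0.000468, called in 9 of 10 alternatives). The T cell genes Ccl5, Cd7 and Cd52 were among the 13. The number called ranged from 2 without sham 3 to 43 without sham 1, and it was 30 without resection 2. For the named genes Id1 and Cdt1, which were not called, the differences were -0.93 and -0.99.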

How the data were processed

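Droplet libraries of ileal epithelium, 3 after sham surgery and 2 after resection, were grouped by their labelled titles. The authors deposited unnormalised UMI counts per gene and cell, made with Cell Ranger per the labels, which give its version with a question mark; the builds mm10 and GRCm38 are named in the submitters' processing notes. Members and gene lists were chosen with earlier results of these data known. Kept cells had at least 500 genes and at most 20% mitochondrial UMIs. Doublets, scored with scanpy 1.11.5 at 0.8% per 1000 cells, were kept, and 720 cells were removed in an alternative.

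Members' counts were summed per library and tested with edgeR 4.0.16 (quasi-likelihood, TMM factors, filterByExpr, Benjamini-Hochberg threshold 0.05) in R 4.3.3; DESeq2 1.42.0 was an alternative. Differences between classes in the effect of resection were tested with edgeR as a class-by-group term beside library and class. Single values were compared by exact permutation over 10 splits with scipy 1.17.1. Scripts were tested on simulated data.

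Named genes were all 26 rule genes; the 10 higher and 10 lower of lowest p with a mean of at least 50 CPM, no group overlap and no mitochondrial origin; the 3 of lowest p in each list; the 8 of largest median ratio each way against mitotic and remaining cells, from 100 CPM and in the same direction in all 5 libraries; and the 3 of lowest p each way in each interaction, from 50 CPM in members. 1 gene that this rule names is not reported here. Genes named beyond these, as examples of a list, were chosen after their values were seen. Alternatives changed the normalization, the filter on low counts, the design, the rule, the cell filters and the libraries used. The cut at 20000 UMIs was chosen after the data were seen, and the balance without Fabp6 was not planned. Lgr5-type cells were not used in a test: in sham 1 their median was 20170.5 UMIs.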

Additional observations from a re-analysis of the deposited data

Results flagged for a closer look

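For 13 genes the effect of resection in S-phase progenitors differed from that in the remaining cells of the same libraries (edgeR interaction test, Benjamini-Hochberg adjusted p below 0.05). The difference of the log2 fold changes, the coefficient of that model, was 2.06 for Ccl5, 1.39 for Cd7 and 2.20 for Cd52, which are T cell genes; 28 members carried at least 2 T cell markers. It was 1.28 for the EGF receptor ligand Areg, 1.53 for Duoxa2 and 1.39 for Phlda1. It was 2.20 for the hexokinase Hk2 and 1.38 for the desaturase Scd2. It was 1.20 for the defensin-like AY761184. The negative differences were -1.47 for the water channel Aqp1 and -3.26 for Angptl4. For 3 genes of low count the coefficient was far from the difference that mean levels give. Reg4 had a coefficient of 4.77, but log2 ratios of mean CPM + 10, resection over sham, of 0.82 in members and -0.69 in the remaining cells; its members held 10.0, 0 and 0 CPM across the sham libraries, then 5.07 and 22.02 CPM after resection. Angptl4 had ratios of -0.48 and 0.88, with 0, 11.8 and 23.7 CPM in members of sham and 7.61 and 3.67 after resection. The heat shock gene Hspa1a had a coefficient of 2.41, and ratios of 0.41 and -0.74. The sizes of these 3 coefficients are therefore uncertain. In the remaining cells Duoxa2, Hk2 and Phlda1 had their highest values in sham 3 (449, 110 and 373 CPM). Without sham 3, 2 genes were called; the part of sham 3 was not tested.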

How the results depend on the processing

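The count of genes called between resection and sham (0 with edgeR) was 2 with DESeq2, 21 with no filter on low counts, 4 with the set of libraries as a term, 32 with the replicate block and 2 without cells of over 20000 UMIs, and 0 to 2 when 1 library was left out. With all libraries used, list genes were 2, 9, 4, 12 and 2 of these. The share of list genes among all tested genes was not taken. The lists were also chosen with earlier results of these data known, so these counts are descriptions. The replicate block pairs sham 1 with resection 1 and sham 2 with resection 2; the labels state no pairing and only 2 numbers are shared. Deviations correlated at 0.461 and 0.293 within these pairs over 4765 genes. Across them the values were -0.461 and -0.293, the same with the sign turned, as 2 resection libraries must give. Sham 3, which the block pairs with no library, correlated at 0.423 with resection 2. These values therefore cannot decide which libraries belong together. The interaction count against mitotic cells (0) was 6 with no filter, 3 without cells of over 20000 UMIs and 0 to 2 by leaving out 1 library. Against the remaining cells (13) it was 7, 29 and 2 to 43.

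The difference in share (-0.42 points) was 0.42 with at most 10% mitochondrial UMIs and 0.19 within sham 1 and resection 1, and -0.82 to 0.33 by leaving out 1 library. The log2 ratio to mitotic cells (-0.22) was 0.0656 within the other 3 libraries and -0.54 to 0.094 by leaving out 1. The difference in regional balance (1.98) ranged from 0.88 to 3.08. With at least 5 S-phase genes it was 1.69 (exact two-sided permutation p = 0.2). Sham 1 then stood at -0.666 and resection 2 at -0.671, so that the groups overlapped.

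Of 1062 values of 73 named genes under alternatives, 994 kept direction and side of the threshold, 26 became called and 42 reversed. Reversals were -0.0656 for Mbd2, -0.068 for Sox4 and 0.35 for Gadd45a with at least 5 S-phase genes; 0.0678 for Cdca7, 0.28 for Lgr4, 0.11 for Cdkn1a and 0.00283 for Gadd45a with at most 10% mitochondrial UMIs; -0.0535 for Dnmt1 with the set term; -0.29 for Dnmt1, -0.13 for Hmgb2 and 0.72 for Gadd45a with the replicate block; -0.0109 with DESeq2, -0.00846 with RLE factors and -0.0408 without doublets for Hmgb2; and 0.12 for Itln1 without cells of over 20000 UMIs. By leaving out 1 library, ranges crossed 0 for Apex1 (-0.15 to 0.48), Dnmt1 (-0.39 to 0.73), Cdca7 (-0.41 to 0.13), Hist1h1c (-1.05 to 1.02), H3f3a (-0.17 to 0.30), Arl6ip1 (-0.0281 to 0.26), Tubb4b (-0.35 to 0.46), Hmgb2 (-0.14 to 0.39), Slc12a2 (-0.00592 to 0.56), Lgr4 (-0.86 to 0.15), Sox4 (-0.0587 to 0.80), Hes6 (-0.29 to 0.51), Cdkn1a (-1.19 to 0.13), Gadd45a (-0.66 to 0.65), Areg (-0.47 to 1.13), Igf1r (-0.17 to 0.92), Slc51a (-1.16 to 0.11), Fabp2 (-0.21 to 2.01), Lyz1 (-4.76 to 1.48), Ang4 (-4.21 to 1.25), Itln1 (-3.59 to 1.90) and Cd7 (-0.45 to 3.08). Of 285 list medians, 29 moved by more than their spread. For these changes the cause was not tested. Members of sham 1 numbered 17 with 127159 UMIs, which limits genes of low count. Of these UMIs 40199 came from 1 member, so the sums of sham 1 lean on that droplet.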

Other observations

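Members differed among themselves in the RNA of mature cells they carried. At least 6 of the 8 enterocyte markers were detected in 97 of 342 members: 7 of 17 in sham 1, 10 of 48 in sham 2, 14 of 100 in sham 3, 21 of 57 in resection 1 and 45 of 120 in resection 2. At least 4 of the 7 goblet markers were detected in 98 members, with the highest share in sham 2 (23 of 48, 47.9%) and the lowest in sham 3 (22 of 100). Stem genes stood apart by library as well: 1 stem gene of the rule was detected in 4 of 17, 21 of 48 and 50 of 100 members of sham 1, 2 and 3 and in 32 of 57 and 46 of 120 of resection 1 and 2.

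The E2F letters also stood in the RefSeq promoters (GRCm38.p6) of 4 genes outside the rule that were high in members: Mcm3, Mcm7, Dnmt1 and Cdca7. In Cdca7 the match began 71 bases before the start, and in 1 promoter of Mcm7 165 bases before it. None was found for Mcm2, Slbp, Nasp, Fabp1 or Apoa4 in these windows.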
